A study of Mus musculus with 8 samples.

Results

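The mitochondrial ribosomal proteins were taken as every gene with a symbol of Mrpl or Mrps followed by a digit, measured on probe sets annotated to that symbol alone. This gave 76 genes of the 18193 on the array, 47 with an Mrpl symbol (large subunit) and 29 with an Mrps symbol (small subunit). They were covered by 156 of 45101 probe sets. Where a gene had several probe sets (42 of the 76 genes), the one with the highest mean log2 intensity over all arrays was used, and 2 further symbols were found only on probe sets shared with another gene and were left out. Symbols do not always follow the place of the protein: Mrps18a and Mrps30 sit in the large subunit, and Mrps36 is a component of the 2-oxoglutarate dehydrogenase complex. By structure the set therefore held 49 large subunit proteins and 26 small subunit proteins.

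The cells were C2C12, an established mouse muscle cell line, taken as myotubes after 3 days in differentiation medium with 2% serum. All 4 groups received an adenovirus at that point, and RNA was taken 3 days later. The GFP group carried virus for green fluorescent protein alone, and the GFP-PGC-1α group carried virus for PGC-1α joined to it. The GFP+DFO and GFP-PGC-1α+DFO groups carried the same viruses and were also given 100 µM deferoxamine (DFO), an iron chelator. Each group had 2 biological replicates, each on 1 Affymetrix mouse expression array, so there were 8 arrays of 1 cell line. No uninfected cells are among them, and the PGC-1α level comes from a virus rather than from the cell's own gene.

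Mitochondria make a small number of proteins, subunits of the oxidative phosphorylation complexes, on a ribosome of their own. Its RNAs are encoded in mitochondrial DNA and its proteins in the nucleus. Many of these proteins have a counterpart in the bacterial ribosome, and others are found only in mitochondrial ribosomes. PGC-1α is a transcriptional coactivator that raises mitochondrial gene expression in muscle, working with DNA-binding factors that include NRF1, the ETS-family factor GABP (NRF2), ERRα and YY1. Iron enters this ribosome through iron-sulfur clusters, which in the small subunit are held between Mrps16 and Mrps25 and between Mrps6 and Mrps18c.

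The sequences that follow are the 100 bases directly before the annotated gene start of 7 members (RefSeq, mouse build GRCm38.p6). Mrpl47 is shown because it had the largest rise with PGC-1α. Mrpl34, Mrpl43, Mrps16 and Mrps27 are shown as members that rose with PGC-1α and carry the ETS letters, and Mrpl22 and Mrpl27 as members that carry the same letters and did not pass the test in either PGC-1α comparison. Capitals mark exact matches, on either strand, to CCGGAAG (ETS) or GCATGCGC (NRF1).
Mrpl47 (chr3:32736756-32736855, minus strand): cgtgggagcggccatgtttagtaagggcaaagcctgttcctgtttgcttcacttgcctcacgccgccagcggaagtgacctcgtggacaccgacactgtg
Mrpl34 (chr8:71464826-71464925, plus strand): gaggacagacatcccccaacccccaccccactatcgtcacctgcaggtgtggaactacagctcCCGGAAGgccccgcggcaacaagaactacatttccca
Mrpl43 (chr19:45006443-45006542, minus strand): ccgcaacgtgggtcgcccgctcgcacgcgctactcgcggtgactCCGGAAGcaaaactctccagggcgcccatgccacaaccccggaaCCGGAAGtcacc
Mrps16 (chr14:20393491-20393590, minus strand): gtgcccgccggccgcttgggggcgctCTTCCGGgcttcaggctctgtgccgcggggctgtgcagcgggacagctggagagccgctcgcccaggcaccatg
Mrps27 (chr13:99344686-99344785, plus strand): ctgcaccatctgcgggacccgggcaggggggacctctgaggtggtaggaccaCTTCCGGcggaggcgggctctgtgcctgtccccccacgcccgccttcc
Mrpl22 (chr11:58171564-58171663, plus strand): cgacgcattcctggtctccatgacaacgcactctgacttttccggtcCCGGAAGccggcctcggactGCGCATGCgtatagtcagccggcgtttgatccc
Mrpl27 (chr11:94653691-94653790, plus strand): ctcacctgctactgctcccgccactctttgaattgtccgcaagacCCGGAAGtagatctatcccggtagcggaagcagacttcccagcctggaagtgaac

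Promoter windows of 300 bases (250 before the gene start and 50 after it) were found for 67 of the 76 members. The windows of Mrpl4, Mrpl13, Mrpl15, Mrpl19, Mrpl38, Mrpl54, Mrps28, Mrps34 and Mrps35 were not used here. Each window was searched on both strands for CCGGAAG, for GCATGCGC, for AAGATGGCG (YY1) and for TCAAGGTCA (ERR), and no one of these 4 strings contains another. The ETS string was in 25 of the 67 members (37.3%), against 15% of the 14452 genes on the array with a window and 8.86% of all 32851 windows. For the NRF1 string the numbers were 8 members (11.9%), 4.68% and 2.71%, and for the YY1 string 8 members (11.9%), 2.53% and 1.4%. The ERR string was in 0 members, 0.401% of the genes and 0.423% of the windows. Among members with a window, the ETS string was in 12 of the 34 that rose with PGC-1α without DFO (35.3%) and in 13 of the 33 others (39.4%). The YY1 string was in 5 and 3 of these, and the NRF1 string in 3 and 5. Mrpl47 held none of the 4 strings. These are matches of letters and say nothing of binding.

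The construct was seen in the arrays as labelled on 1 of the 5 probe sets of Ppargc1a, which encodes PGC-1α. That probe set had intensities of 28.6 and 37.3 on the GFP arrays and 26.6 and 88.1 on the GFP+DFO arrays. It reached 7211 and 7036 on the GFP-PGC-1α arrays and 7930 and 7710 on the GFP-PGC-1α+DFO arrays. The other probe sets of this gene were at or below 113.2 on all arrays, and all were lower in GFP-PGC-1α than in GFP. For example, 1 of them went from 58.46 and 60.01 to 33.15 and 34.67. The cause of this difference between probe sets was not tested. Array medians lay between 59.5 and 62.8. All 76 members were bright: the dimmest value of any member on any array was 167. Their SD between the 2 arrays of a group, on the log2 scale, had a median of 0.08 in GFP, 0.03 in GFP-PGC-1α, 0.05 in GFP+DFO and 0.07 in GFP-PGC-1α+DFO, and the largest was 0.34 for Mrps9 in GFP-PGC-1α+DFO. All 8 myotube markers were above the array median on all arrays. Their summed intensity was 48140 to 50760 in GFP and 40720 to 41150 in GFP-PGC-1α, and it was lower with DFO, at 20530 to 20990 in GFP+DFO and 13660 to 14900 in GFP-PGC-1α+DFO. Of the other cell types looked for, macrophage markers summed to between 1732 and 2593 over all arrays, most of it from Csf1r and Adgre1, while the defining marker Ptprc was at or below 34.8 and Cd68 between 31.4 and 86.5. Fibroblasts were not looked for.

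**Figure D1:**
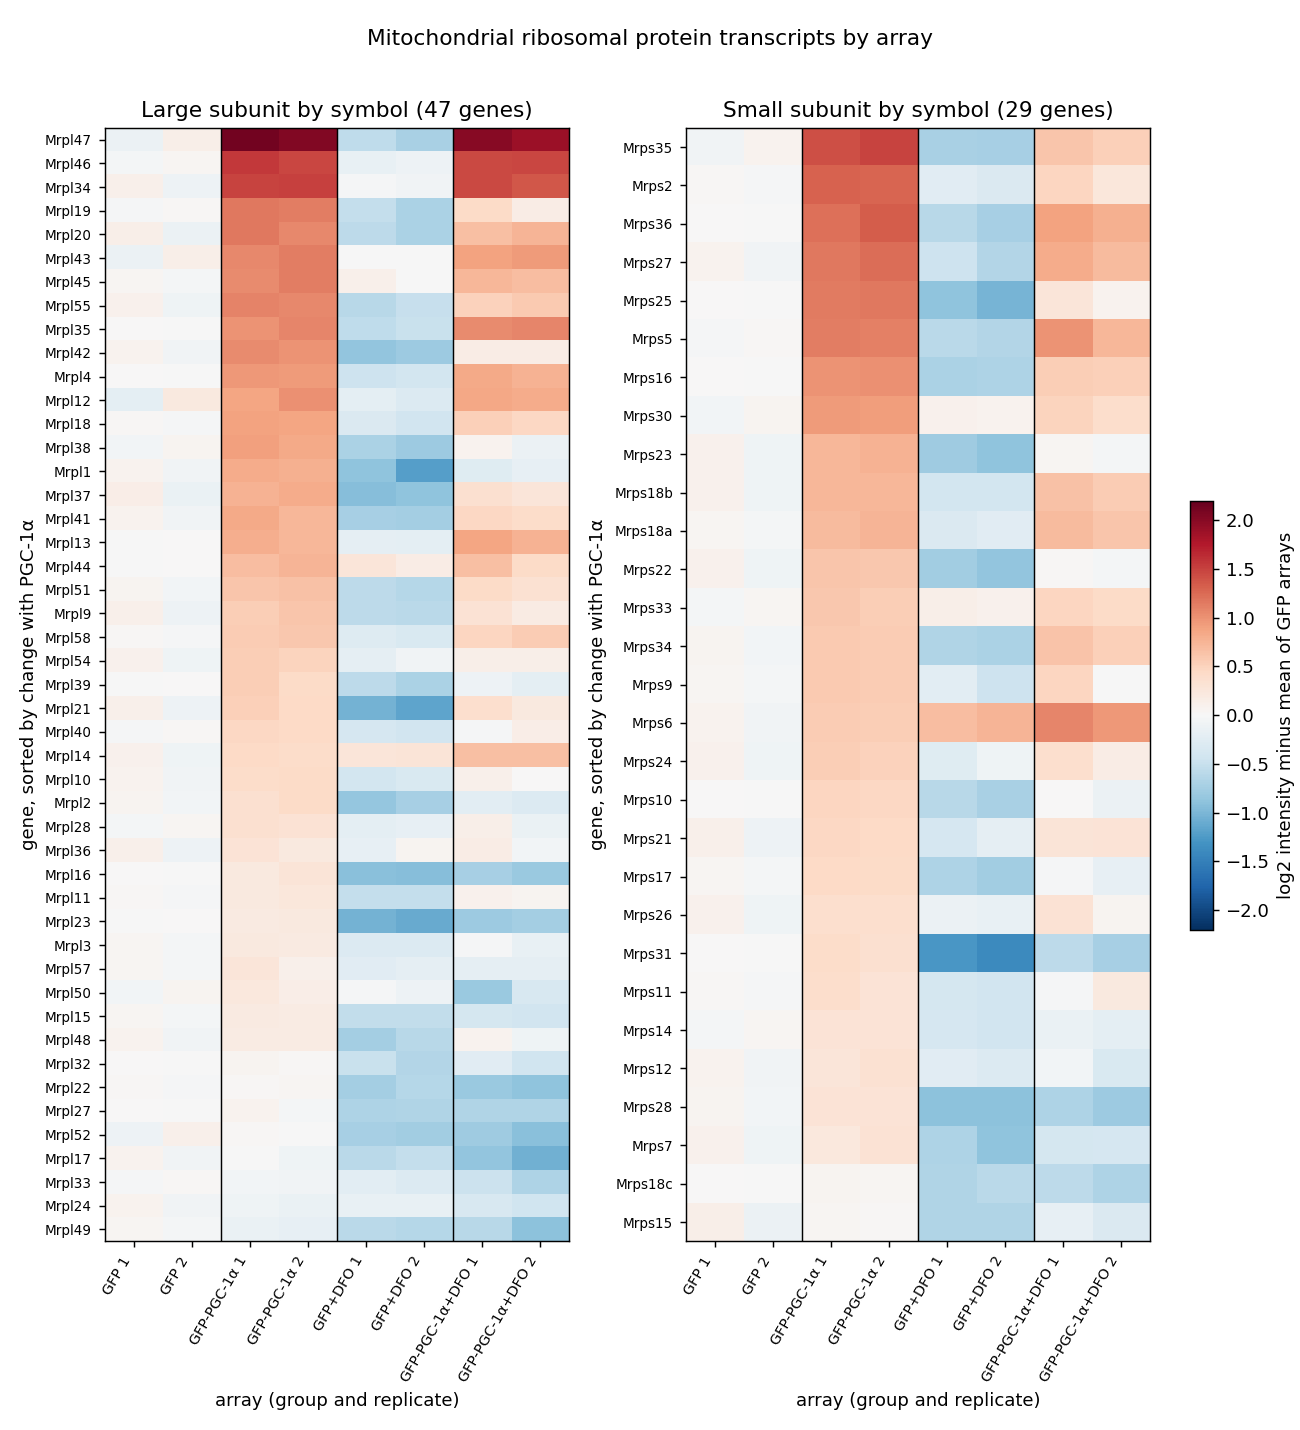
Log2 intensity of each member on each of the 8 arrays, minus the mean of its 2 GFP arrays; large subunit symbols (47) on the left, small subunit symbols (29) on the right, sorted by the change with PGC-1α without DFO. Most members are red on the GFP-PGC-1α arrays and blue on the GFP+DFO arrays, and the GFP-PGC-1α+DFO arrays show both colours, from Mrpl47 (1.94) down to Mrpl17 (-0.96).

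The first comparison asked what PGC-1α did to these transcripts without DFO. Of the 76 members, 41 rose and 0 fell (limma, Benjamini-Hochberg over all genes, adjusted p under 0.05), 25 of 47 with a large subunit symbol and 16 of 29 with a small one. Over all genes, 9.73% were called, 4.96% higher and 4.77% lower. Among the 5991 genes at least as bright on average as the dimmest member, 10.2% were called higher. The median log2 change was 0.48 for the large and 0.57 for the small subunit symbols, against -0.08 over all genes. By structure the counts were 27 of 49 large and 13 of 26 small subunit proteins, with medians of 0.51 and 0.54. The difference between the subunits was not tested. The arrays of the 2 groups did not overlap and were higher in 68 members and lower in 3, against 21.9% and 35.1% of all genes.

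Mrpl47, a protein near the exit of the peptide tunnel, had the largest rise. Its intensity was 497 and 592 on the GFP arrays and 2376 and 2229 on the GFP-PGC-1α arrays. The groups were far apart, and the log2 change was 2.09 ± 0.13 (SE, n = 2 arrays a group, adjusted p = 0.002655), or 4.24-fold. Mrpl46, a mitochondrion-specific large subunit protein, went from 267 and 281 to 803 and 755 (1.51 ± 0.08, adjusted p = 0.002213). Mrpl34, the counterpart of a very small bacterial protein, went from 597 and 515 to 1552 and 1582 (2.83-fold, adjusted p = 0.003). In the small subunit Mrps35 had the largest rise, from 262 and 294 to 736 and 776 (1.45 ± 0.09, adjusted p = 0.002792). Among the others that rose were Mrps2 (1.29) and Mrps5 (1.12), counterparts of bacterial small subunit proteins, and Mrps25 (1.15) and Mrps27 (1.19), which have none. Without GFP-PGC-1α replicate 1 the calls for Mrps5, Mrps25 and Mrps27 were lost (adjusted p = 0.05667, 0.05162 and 0.05082), as was that for Mrps5 without GFP replicate 1 (0.05011). With the mean of all probe sets of a gene, Mrps5 (0.42, adjusted p = 0.07956) and Mrps25 (0.72, adjusted p = 0.09113) did not pass either.

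Mrpl12, the stalk protein that has also been described as a partner of the mitochondrial RNA polymerase, was 1301 and 1764 on the GFP arrays. These arrays stood further apart than those of any other member in that group. On the GFP-PGC-1α arrays it was 2778 and 3028, a log2 change of 0.94 ± 0.16 (adjusted p = 0.02832). This call was lost without GFP replicate 1, either GFP-PGC-1α array or either GFP+DFO array (adjusted p from 0.07065 to 0.1162). Mrps12, a small subunit protein of the decoding centre, was 606 and 547 and then 693 and 727. The arrays did not overlap, but the change of 0.30 ± 0.12 did not pass the test (adjusted p = 0.19). Mrpl15 and Mrps18b were the brightest member of each symbol group: Mrpl15 stood at 4538 and 4247 without and 5053 and 4951 with PGC-1α (0.19, adjusted p = 0.2042), and Mrps18b at 1444 and 1261 without and 2234 and 2249 with it.

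The 3 Mrps18 paralogs, which all descend from the bacterial S18 protein, did not follow one pattern. Mrps18a, a large subunit protein, went from 900 and 853 to 1422 and 1469 (0.72 ± 0.09, adjusted p = 0.01065). Mrps18b, at its own place in the small subunit, rose by 0.73 ± 0.10 (adjusted p = 0.01522). Mrps18c, which sits where S18 sits in bacteria, was 955 and 947 without and 992 and 985 with PGC-1α (0.06 ± 0.08, adjusted p = 0.7184). The call for Mrps18a was lost without any 1 of the GFP or GFP-PGC-1α arrays, and that for Mrps18b without GFP replicate 2, either GFP-PGC-1α array or either GFP+DFO array. Differences between the paralogs were not tested. Mrps36, which is not a ribosomal protein, went from 402 and 398 to 925 and 1004 (1.27 ± 0.10, adjusted p = 0.003865).

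**Figure D2:**
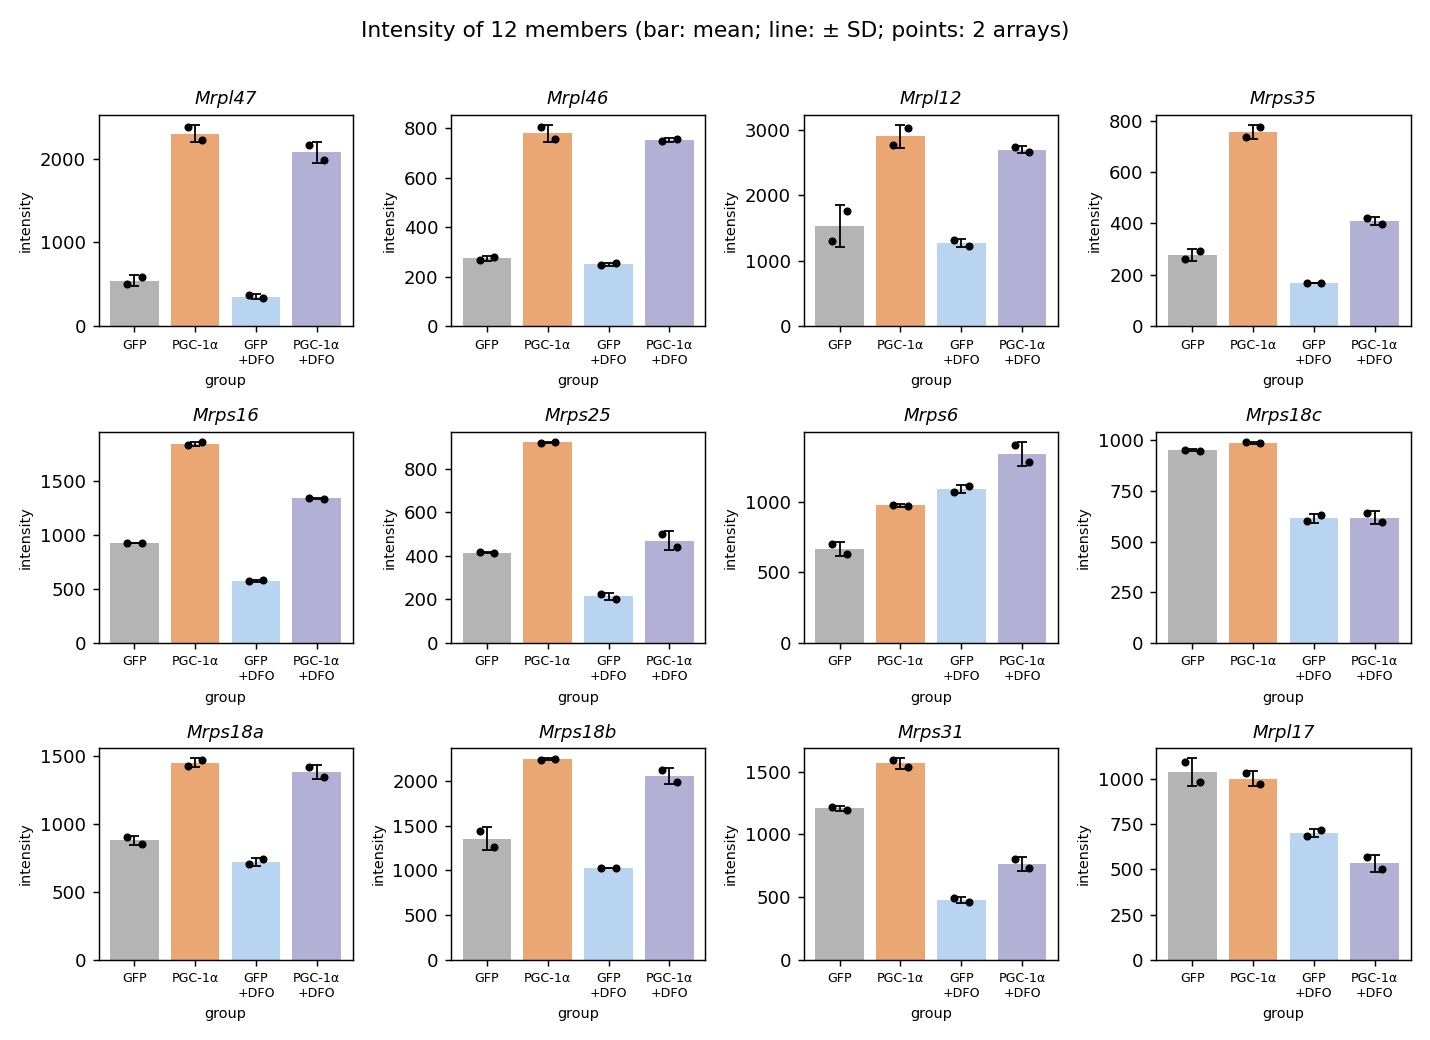
Intensity (linear axis from 0) of 12 members in the 4 groups; bars are means, lines ± SD and points the 2 arrays. Mrpl47, Mrpl46 and Mrps35 are higher on all PGC-1α arrays than on their GFP counterparts, Mrps18c and Mrpl17 are lower on the DFO arrays at either PGC-1α level, and Mrps6 is lowest on the 2 GFP arrays.

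A split by whether a protein has a bacterial counterpart at its place showed a wider gap than the split by subunit. Mrps18a and Mrps18b, though they descend from S18, were counted among those without one (here called mitochondrion-specific). Of the 31 proteins without a bacterial counterpart at their place, 24 rose without DFO, with a median of 0.71. Of the 44 of bacterial type, 16 rose, with a median of 0.41. Among small subunit symbols the numbers were 10 of 12 and 5 of 16 (medians 0.73 and 0.44), and among large ones 14 of 19 and 11 of 28 (0.62 and 0.39). With Mrps18a and Mrps30 counted in the large subunit, where they sit, 8 of 10 mitochondrion-specific small subunit proteins rose, with a median of 0.67. Of the mitochondrion-specific large ones 16 of 21 then rose, with a median of 0.71, so the order of the subunits turned. With DFO, PGC-1α raised 24 of 31 and 23 of 44, with medians of 0.81 and 0.48, where 6.93% of all genes were called higher. These are counts and medians of members chosen by symbol, and the difference between the 2 classes was not tested.

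The calls for PGC-1α without DFO depended on how many arrays set the spread. With only the 4 arrays of the 2 groups in the fit, 0 members passed, as did 0 of all 18193 genes, although 55 members had an unadjusted p under 0.05 by limma and the lowest adjusted p was 0.06672. Without 1 array, the count was 10 or 18 (GFP-PGC-1α replicate 1 or 2 left out), 21 or 23 (GFP replicate 1 or 2) and 25 (either GFP+DFO replicate). Leaving out a GFP-PGC-1α+DFO array gave 42. Every array except those of GFP-PGC-1α+DFO therefore moved the count by over 1.5 times. Without each of those arrays the share of all genes called was lower as well, so the loss was not particular to the members. The 10 members called without each of the 8 arrays in turn were Mrpl4, Mrpl34, Mrpl35, Mrpl45, Mrpl46, Mrpl47, Mrps2, Mrps16, Mrps35 and Mrps36. With every probe set tested on its own, 26 members passed. Under one of the spike-in scalings described further on 24 did, where 2.79% of all genes were called. With the mean of all probe sets of a gene 27 rose and 1 fell, where 5.17% of all genes were called. An exact permutation test of 2 arrays against 2 cannot give a two-sided p below 0.333.

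**Figure D3:**
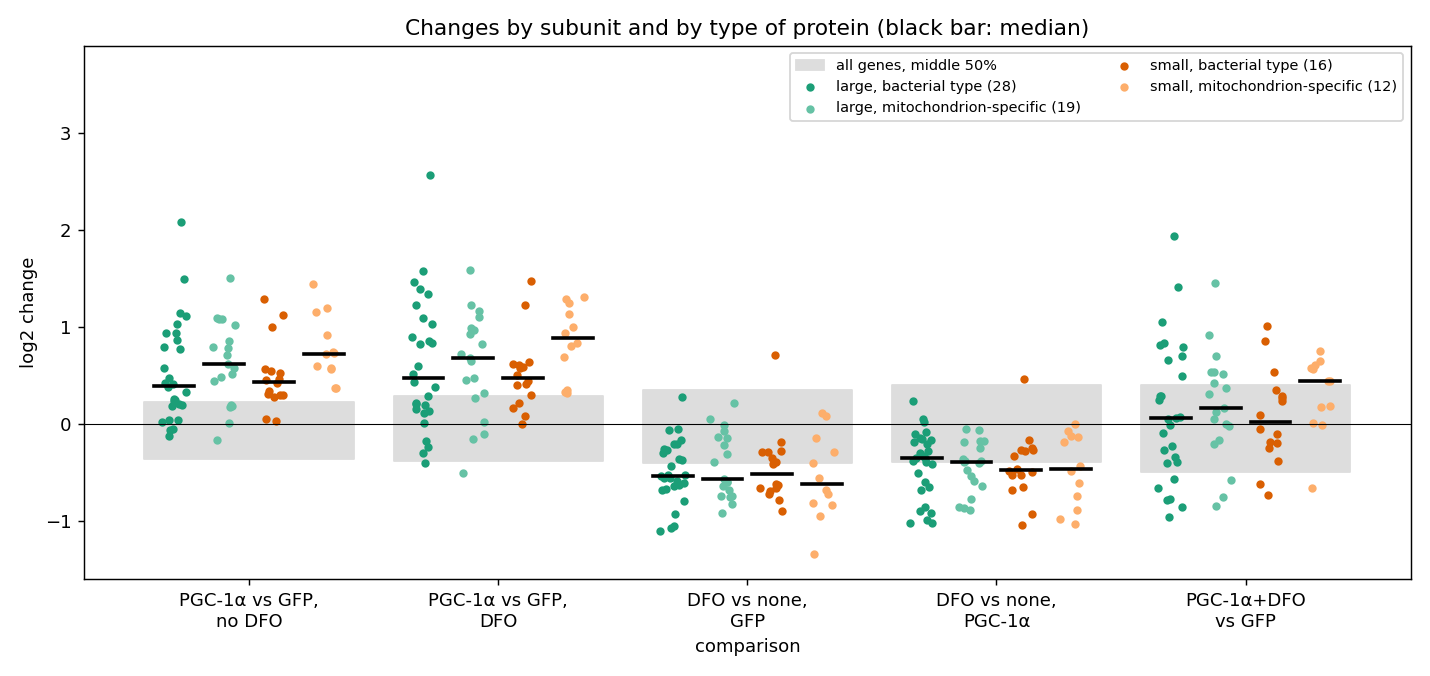
Log2 change of each member in 5 comparisons, split by subunit symbol and by presence of a bacterial counterpart at the protein's place (Mrps36 left out). Black bars are medians and grey boxes the middle 50% of all genes. In both comparisons of PGC-1α with GFP the mitochondrion-specific proteins with small subunit symbols have the highest median (0.73 and 0.89). Placed by structure, the mitochondrion-specific large subunit proteins have the higher median without DFO (0.71 against 0.67). In the comparisons of DFO with none all 4 medians are below 0.

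The same question was put in cells that also received DFO, on 4 arrays that share none with the comparison before. Here 48 members rose and 0 fell, 29 with a large and 19 with a small subunit symbol. Over all genes 18.9% were called, 6.93% higher and 12% lower. Among the genes at least as bright as the dimmest member, 13.6% were called higher and 24% lower. The arrays did not overlap and were higher in 64 members and lower in 6, against 25.3% and 34.5% of all genes. The median log2 change was 0.60 for the large and 0.61 for the small subunit symbols, and -0.05 over all genes. Scaled on spiked RNA, with 27 or 24 probe sets, 65 or 67 members rose and 0 fell, the medians were 1.10 and 1.11 or 1.21 and 1.23, and that of all genes was 0.45 or 0.57. Mrpl47 was again first, from 370 and 332 on the GFP+DFO arrays to 2165 and 1988 on the GFP-PGC-1α+DFO arrays (2.57 ± 0.13, adjusted p = 0.0008419). Mrpl46 rose by 1.59 ± 0.08 (adjusted p = 0.0008984). Mrpl35, a large subunit protein of bacterial type, went from 564 and 588 to 1703 and 1742 (1.58 ± 0.08, adjusted p = 0.0008984). Mrps36 rose 2.83-fold. On the log2 scale Mrps5 rose by 1.47 ± 0.11, Mrps27 by 1.31 ± 0.11 and Mrps16 by 1.22 ± 0.07. Mrps16, a holder of an iron-sulfur cluster, stood at 567 and 577 without and 1340 and 1331 with PGC-1α. Mrps18a and Mrps18b rose by 0.94 and 1.00, while Mrps18c changed by 0.01 ± 0.08 (adjusted p = 0.9802).

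Without GFP+DFO replicate 1 the count with DFO was 27, and without replicate 2 it was 24; the other arrays left 40 to 43. With only the 4 arrays compared it was 25, where 4.73% of all genes were called. Without either GFP+DFO array fewer of all genes were called as well. With the mean of all probe sets of a gene 32 rose and 1 fell, where 12.2% of all genes were called. With a spread that follows the level, robustly fitted, 57 rose and 4 fell, where 27.4% of all genes were called. In all, 24 members passed without each of the 8 arrays in turn, Mrpl46, Mrpl47, Mrpl34, Mrpl35, Mrps5, Mrps16, Mrps18a, Mrps18b, Mrps25, Mrps27, Mrps34, Mrps35 and Mrps36 among them. Mrpl12 (1.09) lost its call without either GFP+DFO array (adjusted p = 0.06972 and 0.07767). With the mean of all probe sets Mrps25 (0.38, adjusted p = 0.2555) did not pass. Mrps30 (0.35 ± 0.09, adjusted p = 0.04732) lost it without any 1 of the 8.

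The 2 PGC-1α effects ranked the members alike. Across the 76 members their Pearson r was 0.86 and their Spearman rho 0.86, and across all 18193 genes 0.30 and 0.35. The points share the arrays of their group and the chemistry of their probe sets, so no p is given. On each array 55.3% to 72.5% of all genes were dimmer than the dimmest member, and genes of like brightness were not compared in this way. Of the members that rose, 38 did so in both comparisons, which is 92.7% of the 41 and 79.2% of the 48. Over all genes called higher these shares were 68.8% and 49.3%. A group of 25 members passed in neither, 16 large and 9 small by symbol, of which 20 were of bacterial type and 5 were not. Their changes lay between -0.17 and 0.57 without DFO and between -0.51 and 0.59 with it. This group holds Mrpl15, Mrpl16, Mrpl17, Mrpl22, Mrpl23, Mrpl27, Mrpl49, Mrpl52, Mrps12, Mrps18c and Mrps28.

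**Figure D4:**
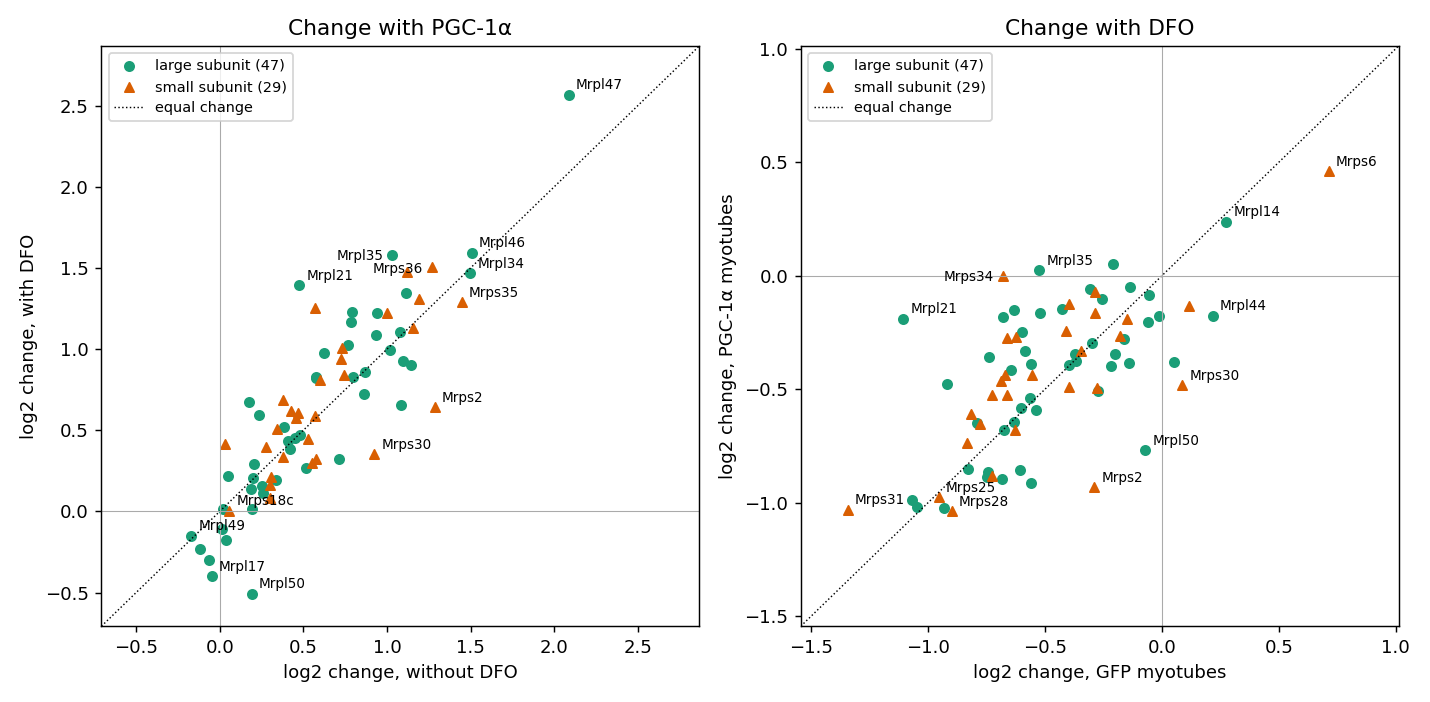
Log2 change of each member with PGC-1α (left; without DFO on the horizontal axis, with DFO on the vertical axis) and with DFO (right; GFP myotubes horizontal, PGC-1α myotubes vertical); circles are large and triangles small subunit symbols, and the dotted line marks equal change. In the left panel the points lie along the line (r = 0.86 over 76 members) with Mrpl47 at the top right, and in the right panel they spread more widely (r = 0.65), with Mrps6 (0.71 and 0.46) at the top right.

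DFO lowered most of these transcripts in the GFP cells. Of the 76 members 50 fell and 1 rose, 31 of 47 large and 19 of 29 small subunit symbols falling. Over all genes 24.2% were called, 12.5% lower and 11.8% higher, and 23.7% of the genes at least as bright as the dimmest member were called lower. The median log2 change was -0.54 for the large and -0.62 for the small subunit symbols, against -0.02 over all genes. Of the proteins of bacterial type 29 of 44 fell, and of the mitochondrion-specific ones 20 of 31, with medians of -0.53 and -0.57. The arrays did not overlap and were lower in 64 members and higher in 5, against 33% and 30.9% of all genes.

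Mrps31, a mitochondrion-specific small subunit protein, had the largest fall, from 1219 and 1194 on the GFP arrays to 495 and 457 on the GFP+DFO arrays (-1.34 ± 0.09, adjusted p = 0.0008164). Mrpl21 went from 766 and 652 to 342 and 315 (-1.11 ± 0.12, adjusted p = 0.003053). Mrpl23, a protein at the peptide exit, went from 1210 and 1214 to 591 and 565 (-1.07 ± 0.08, adjusted p = 0.0008911). Mrpl1, a protein of the stalk through which the used tRNA leaves, went from 480 and 428 to 246 and 195 (-1.05 ± 0.14, adjusted p = 0.005401). In these 4 genes the GFP and GFP+DFO arrays did not overlap on the probe sets used. With the mean of all probe sets of a gene, 3 of them did not pass: Mrps31 (-0.81, adjusted p = 0.05715), Mrpl21 (-0.74, adjusted p = 0.3951) and Mrpl1 (-0.26, adjusted p = 0.5567). Mrps28 (-0.90) and Mrps7 (-0.78), small subunit proteins of bacterial type, also fell; the call for Mrps7 was lost without GFP+DFO replicate 2 (adjusted p = 0.05332).

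Mrps6 went the other way. It stood at 701 and 631 on the GFP arrays, 1069 and 1111 on the GFP+DFO arrays, 980 and 968 on the GFP-PGC-1α arrays and 1401 and 1281 on the GFP-PGC-1α+DFO arrays. It was therefore lowest with neither agent and highest with both. The change with DFO was 0.71 ± 0.10 in GFP cells (adjusted p = 0.005874) and 0.46 ± 0.10 in PGC-1α cells (adjusted p = 0.02315), and PGC-1α raised it by 0.55 ± 0.10 without DFO (adjusted p = 0.0299). A second probe set for Mrps6 gave 481 and 488 for GFP and 795 and 823 for GFP+DFO. The call in GFP cells was lost without GFP+DFO replicate 2 (adjusted p = 0.05184), and that in PGC-1α cells without either GFP-PGC-1α array, GFP-PGC-1α+DFO replicate 1 or either GFP+DFO array (0.05909 to 0.09847). The rise with PGC-1α was lost without any 1 of the 6 arrays outside GFP-PGC-1α+DFO (adjusted p from 0.08019 to 0.1472).

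The other 3 holders of iron-sulfur clusters in the small subunit fell. Mrps25 went from 416 and 413 to 226 and 203 (-0.95 ± 0.10, adjusted p = 0.003052), Mrps16 from 923 and 920 to 567 and 577 (-0.69 ± 0.07, adjusted p = 0.00283), and Mrps18c from 955 and 947 to 600 and 631 (-0.63 ± 0.08, adjusted p = 0.005408). These falls passed the test without each array in turn. With the mean of all probe sets Mrps25 did not pass (-0.64, adjusted p = 0.06845).

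Without GFP replicate 1 the count of calls in GFP cells was 32, and without GFP+DFO replicate 1 or 2 it was 26 or 21. The 20 members that passed without each of the 8 arrays include Mrpl1, Mrpl16, Mrpl21, Mrpl23, Mrps28 and Mrps31. Without GFP replicate 1 or either GFP+DFO array, fewer of all genes were called as well. With only the 4 arrays compared 38 members passed, and with the mean of all probe sets of a gene 27 did, where 19.4% and 17% of all genes were called. Scaled on spiked RNA 28 members fell and 1 rose, or 18 and 0 without the trpn probe sets. Several other measures moved with DFO. Besides the lower myotube marker sum, Myog, a transcription factor of muscle differentiation, was 5223 and 5330 on the GFP arrays and 174 and 141 on the GFP+DFO arrays, and 5296 and 5245 on the GFP-PGC-1α arrays and 63.1 and 71.1 on the GFP-PGC-1α+DFO arrays. The 4 myoblast markers summed to 2075 and 2096 in GFP and to 587 and 588 in GFP+DFO. Within that list Myf5 and Myod1 fell, and Cd34 rose with DFO, from 74.7 and 79.2 to 207 and 206 in GFP cells (1.43 ± 0.15, adjusted p = 0.002846) and by 1.06 in PGC-1α cells (adjusted p = 0.006725). Cd68, from the macrophage list, rose as well, from 34.8 and 31.4 to 81.5 and 86.5 (1.34 ± 0.16, adjusted p = 0.003797), and by 0.96 in PGC-1α cells (adjusted p = 0.01057). Adipocyte markers summed to 21.1 and 48.8 in GFP and to 87.6 and 103 in GFP+DFO, with no single one called. The ratio of the 5′ to the 3′ probe set of β-actin, a measure of how intact the labelled RNA is, was 0.897 to 0.921 without DFO, 0.868 and 0.859 in GFP+DFO, and 0.753 and 0.811 in GFP-PGC-1α+DFO. The part of any of these in the falls was not tested. In RNA from a whole culture, fewer cells of a type and less RNA per cell cannot be told apart.

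In cells with PGC-1α, DFO lowered 43 members and raised 1, with 26 large and 17 small subunit symbols falling. Over all genes 25.6% were called, 14.2% lower and 11.4% higher. Among the genes at least as bright as the dimmest member, 26% were called lower and 19.1% higher. The arrays did not overlap and were lower in 70 members and higher in 2, against 30.6% and 30.1% of all genes. The median log2 change was -0.38 for the large and -0.46 for the small subunit symbols, against 0.01 over all genes. Mrps28 went from 1017 and 1016 on the GFP-PGC-1α arrays to 515 and 476 on the GFP-PGC-1α+DFO arrays (-1.04 ± 0.09, adjusted p = 0.001232). Mrps31 went from 1594 and 1537 to 806 and 727 (-1.03 ± 0.09, adjusted p = 0.001579). Mrpl16, a large subunit protein near the site where tRNAs bind, went from 1115 and 1167 to 578 and 546 (-1.02 ± 0.08, adjusted p = 0.0009498). Mrpl1 fell by 1.02 ± 0.14 on the log2 scale, Mrps25 by 0.98 ± 0.10 and Mrps2 by 0.93 ± 0.10. With the mean of all probe sets Mrpl1 did not pass (-0.66, adjusted p = 0.1311). The count of members was lower without each array in turn, and lowest without either GFP-PGC-1α array. The share of all genes called was lower without each array too. With only the 4 arrays compared the count was 14, where 10.7% of all genes were called. With the mean of all probe sets of a gene it was 24, where 19% of all genes were called.

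This comparison also rested on how the arrays were brought to one level. Scaled on the 27 probe sets of RNA spiked into the samples, whose mean log2 intensity was 7.60 and 7.47 on the GFP-PGC-1α+DFO arrays and 7.82 to 8.16 on the others, 10 members fell and 2 rose, with medians of -0.022 (large) and -0.11 (small). The 3 trpn probe sets among the 27 were dim, with a mean log2 intensity of 2.68 to 3.87 over the arrays. Without them, 24 being left, 1 member fell and 2 rose, with medians of 0.062 and -0.023. Of all genes 803 then fell and 3398 rose. All genes moved too, from a median of 0.01 to 0.36 and 0.45. Such a scaling shifts a whole array, so the members' median minus that of all genes (-0.40) is the same under each by construction. Median centring and quantile normalization gave 44 and 38 falls and 1 rise each. Which scaling is right cannot be told from these arrays.

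The 2 DFO effects also share no array. Across the 76 members their Pearson r was 0.65 and Spearman rho 0.61, and across all genes, many of them dimmer than any member, 0.56 and 0.50, given as a description. There were 35 members that fell in both, 70% of the 50 and 81.4% of the 43, and Mrps6 rose in both. Over all genes called lower the shares were 71.4% and 62.8%, so the first is near the share of all genes. A group of 18 fell in neither, Mrpl12, Mrpl34, Mrpl43, Mrpl46, Mrps18a and Mrps33 among them. Mrpl34 was 597 and 515 in GFP and 544 and 525 in GFP+DFO (-0.05 ± 0.10, adjusted p = 0.7619). Mrpl46 was 267 and 281 in GFP and 246 and 253 in GFP+DFO (-0.14 ± 0.08, adjusted p = 0.3118).

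The size of the change with PGC-1α was compared between cells with and without DFO by the interaction term of the same fit. By limma 0 of 76 members passed, against 0.555% of all genes (0.231% positive and 0.324% negative). An unadjusted p under 0.05 was seen in 14 of the 76, and in 3165 of all 18193 genes, a similar share. The lowest adjusted p was 0.09549 for Mrps34 (0.68 ± 0.13), whose rise was 0.57 without and 1.25 with DFO. Mrpl21 had the largest positive difference (0.92 ± 0.17, adjusted p = 0.09816): it was 766 and 652 in GFP, 1014 and 954 in GFP-PGC-1α, 342 and 315 in GFP+DFO and 912 and 818 in GFP-PGC-1α+DFO. Mrps2 lay on the other side (-0.64 ± 0.15, adjusted p = 0.1324), with rises of 1.29 and 0.64. The result depended on the model of the spread: with only genes above the median level 7 passed (Mrpl21, Mrpl35, Mrpl45, Mrpl48, Mrps2, Mrps30 and Mrps34), where 14.5% of the genes tested did. With a spread that follows the level, robustly fitted, 10 passed, where 8.06% of all genes did.

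The last comparison set cells with both agents against cells with neither. Of the 76 members 28 were higher (36.8%) and 13 lower (17.1%), against 13.5% and 18.3% of all genes (31.8% together). Among the genes at least as bright as the dimmest member, 23.1% were called higher and 33.1% lower. The arrays did not overlap and were higher in 39 members and lower in 22, against 29.9% and 32.9%. With only the 4 arrays compared 13 were higher and 7 lower, where 16.7% of all genes were called. The large subunit symbols gave 17 higher and 10 lower with a median of 0.07, and the small ones 11 and 3 with a median of 0.24. By structure the gap was narrower: 19 higher and 10 lower with a median of 0.13 for large, and 8 and 3 with 0.18 for small subunit proteins. Mrpl47 (1.94 ± 0.13, adjusted p = 0.0003769), Mrpl46 (1.46 ± 0.08), Mrpl34 (1.41 ± 0.10), Mrpl35 (1.06 ± 0.08) and Mrps6 (1.01 ± 0.10) were highest. Mrpl17 was lowest: it was 1094 and 985 in GFP, 1034 and 976 in GFP-PGC-1α, 688 and 720 in GFP+DFO and 568 and 501 in GFP-PGC-1α+DFO (-0.96 ± 0.11, adjusted p = 0.002157). Mrpl22 (-0.86), Mrpl52 (-0.85), Mrpl23 (-0.78), Mrpl16 (-0.77), Mrpl49 (-0.75) and Mrps28 (-0.74) were next. Among the mitochondrion-specific proteins 15 of 31 were higher and 3 lower, and among those of bacterial type 12 of 44 and 10. Scaled on the spiked RNA, 54 members were higher and 0 lower (52 and 0 without the trpn probe sets), while the median of all genes moved to 0.56 and 0.61. This comparison shares its arrays with the others.

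**Figure D5:**
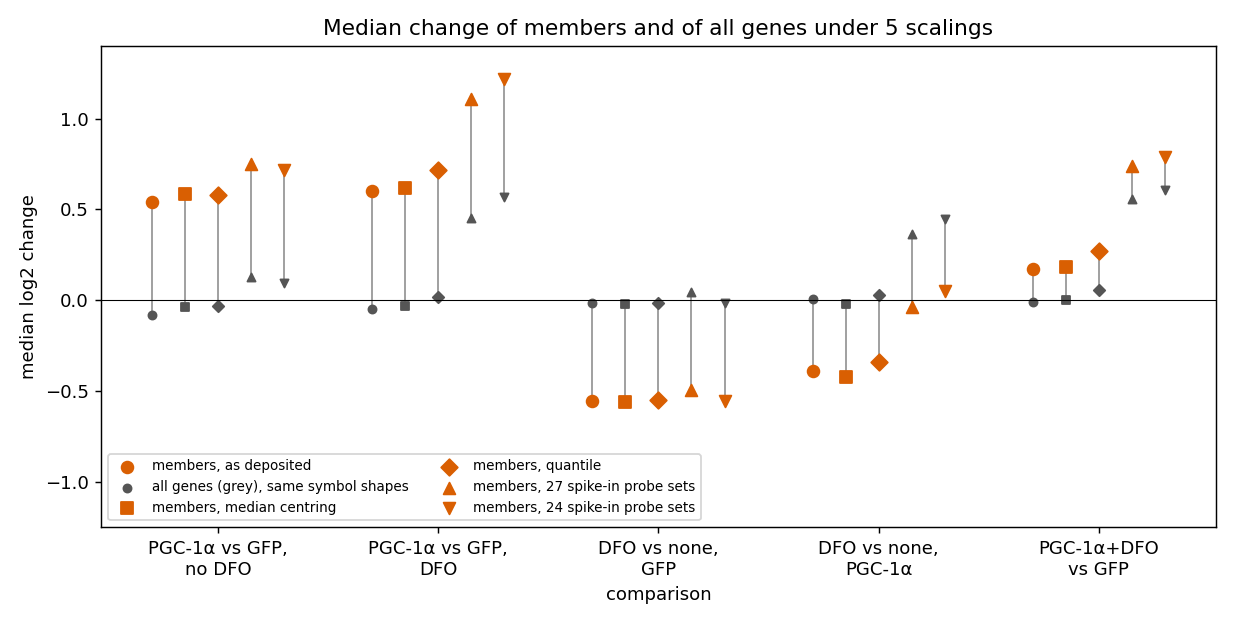
Median log2 change of the 76 members (orange) and of all genes (grey) in 5 comparisons under 5 ways of bringing the arrays to one level. As deposited, the members' median minus that of all genes is 0.62 and 0.65 for PGC-1α and -0.54 and -0.40 for DFO, and quantile normalization gives 0.61, 0.70, -0.54 and -0.37; under spike-in scaling the members' median for DFO in PGC-1α cells lies at -0.04 or 0.05.

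For 3 members the probe sets did not go one way. In GFP cells with DFO the Mrpl11 probe set used here fell (1382 and 1342 to 949 and 947, -0.52), while a dim one, at 3.01 and 2.38 and then 9.64 and 20.4, was called higher, near the floor of the scale. For Mrpl3 with DFO in PGC-1α cells, the probe set used did not pass (-0.30, adjusted p = 0.1388 with every probe set tested on its own). A second one fell (-0.69), and a dim one, at 33.3 and 30.9 and then 66.9 and 58.5, rose (0.96). Mrpl19 had 1 call in each direction in the comparison of both agents with neither. The 80 probe sets not used were dimmer, with a median log2 level of 6.72 against 9.83. Of these 8 were higher and 1 lower with PGC-1α without DFO, and 2 were higher and 18 lower with DFO in GFP cells. The share of all probe sets called is not given here, so these counts cannot be set against it. Their median log2 changes were 0.31 and -0.29, against 0.54 and -0.56 for the probe sets used.

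Other genes of mitochondrial translation give a setting for these values. Of 13 translation factors and their partners 6 rose (46.2%, against 4.96% of all genes) and 0 fell with PGC-1α without DFO, with a median of 0.65. Gfm1, an elongation factor that moves the ribosome along the message, went from 738 and 743 to 2110 and 2088 (2.83-fold, adjusted p = 0.002007). Tufm, the elongation factor that brings tRNA, went from 651 and 604 to 1438 and 1550 (1.25 ± 0.10, adjusted p = 0.004435), though the mean of its probe sets did not pass (adjusted p = 0.413). When GFP cells received DFO, 6 of the 13 fell (46.2%, against 12.5% of all genes). They were led by Lrpprc, which binds mitochondrial messages (-1.65 ± 0.17), and Gfm2, a factor of ribosome recycling (-1.26 ± 0.11). Of 25 genes of ribosome assembly and rRNA modification 5 rose (20%, against 4.96% of all genes) and 0 fell with PGC-1α without DFO. With PGC-1α under DFO 5 rose (20%, against 6.93% of all genes) and 2 fell (8%, against 12%). In GFP cells given DFO, 5 fell (20%, against 12.5% of all genes) and 1 rose. In PGC-1α cells given DFO, 15 fell (60%, against 14.2% of all genes) and 1 rose, with a median of -0.62 as deposited, but 1 or 0 fell under the spike-in scalings, with medians of -0.27 and -0.18. Mrm1, which methylates the large ribosomal RNA, was the one that rose with DFO, in GFP cells from 112 and 123 to 261 and 263 (1.16 ± 0.10, adjusted p = 0.001368). It also rose with PGC-1α, to 324 and 348, and was highest with both, at 650 and 592.

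Ribosomal proteins that carry other names are not among the 76. Of 4 of them, Ptcd3, a small subunit protein, rose with PGC-1α (0.51 ± 0.10, adjusted p = 0.04194; the call was lost without any 1 of the 8 arrays and with the mean of its probe sets) and fell with DFO in GFP cells, from 1182 and 1037 to 493 and 459 (-1.22 ± 0.10). Dap3, a GTP-binding small subunit protein, was 1363 and 1289 in GFP, 1289 and 1304 in GFP-PGC-1α and 1540 and 1581 in GFP+DFO, and was called in no comparison. Of 42 proteins of the cytosolic ribosome, 0 rose and 1 fell with PGC-1α without DFO by limma (2.38%, against 4.77% of all genes called lower). Of the 42, 8 had an unadjusted p under 0.05 by limma, as did 5036 of all 18193 genes. Their median was -0.15 and turned to 0.058 and 0.024 under the spike-in scalings, where 0 were called. With PGC-1α and DFO 0 rose and 6 fell as deposited (14.3%, close to the 12% of all genes called lower), with a median of -0.22. The median was 0.28 and 0.40 under those scalings. In GFP cells DFO lowered 6 of the 42 (14.3%, close to the 12.5% of all genes) and raised 0, with a median of -0.10 as deposited, -0.036 with 27 and -0.10 with 24 spike-in probe sets. In both agents against neither 21 fell (50%, against 18.3% of all genes) and 0 rose as deposited. With 27 spike-in probe sets 3 fell and 5 rose, and the median went from -0.29 to 0.27. The difference between the mitochondrial and cytosolic proteins was not tested.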

How the data were processed

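RNA of 8 cultures was measured on 8 arrays, 4 groups of 2. The deposited values are linear intensities, 1 per probe set. The authors brought the arrays to nearly equal medians, as the values show. The method, the background correction and the software are not given in the sources used here, so the arrays' number and that unknown step limit the precision. Gene names came from the platform's annotation: 34945 probe sets had 1 symbol, 932 several, 9160 none, and 64 were controls. Per gene the probe set of highest mean log2 intensity was kept (18193 genes).

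Log2 intensities were fitted with limma 3.58.1 in R 4.3.3, 1 mean per group over all 8 arrays (4 residual degrees of freedom, 1.3 prior). Changes were tested for 6 contrasts, two-sided, with Benjamini-Hochberg adjustment over all genes of a contrast, and were called at an adjusted p under 0.05. The scripts were tested on simulated data. Members and gene lists were chosen with earlier results of these data known. Genes were named by size of change among calls whose arrays do not overlap (4 in each direction per single-factor contrast), by list (up to 2 each) and by a fixed set of members; others were picked after their values were seen. No consistent pairing of arrays by replicate number was seen: same-numbered deviations correlated between -0.11 and 0.22. With 2 arrays a group, this cannot exclude a pairing. Alternatives were other choices of probe set, other scalings, filters and pseudocounts, other variance models, a replicate block and leaving out each array. Scaling on spike-ins without TrpnX was added after seeing the data. The TrpnX probe sets had a mean log2 intensity of 2.68 to 3.87 over the arrays, against 7.97 to 8.77 for the other spike-ins. Promoter sequences are RefSeq's.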

Additional observations from a re-analysis of the deposited data

Results flagged for a closer look

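In 4 members the 2 arrays of a group moved one way under one condition and the 2 arrays of the other group moved the opposite way. How many of all genes show this was not counted. In each single-factor comparison the arrays of 21.9% to 35.1% of all genes did not overlap in a given direction. The difference itself, tested as the interaction term by limma, did not pass in any of them. With DFO, Mrps30 was 651 and 705 in GFP and 722 and 718 in GFP+DFO, but 1290 and 1278 in GFP-PGC-1α and 952 and 887 in GFP-PGC-1α+DFO (difference -0.57, adjusted p = 0.1215). Mrpl44 gave -0.39 (adjusted p = 0.2903) and Mrps33 -0.25 (adjusted p = 0.3468) in the same way. With PGC-1α, Mrpl50 was 749 and 819 in GFP and 923 and 865 in GFP-PGC-1α, but 767 and 725 in GFP+DFO and 446 and 617 in GFP-PGC-1α+DFO, where the arrays were far apart (difference -0.70, adjusted p = 0.2363).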

How the results depend on the processing

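Counts of called members, in the order PGC-1α without DFO, DFO in GFP cells, PGC-1α with DFO, DFO in PGC-1α cells, interaction, and both agents against neither, were 41, 51, 48, 44, 0 and 41. Without each array in turn they were 10 to 42, 21 to 51, 24 to 43, 20 to 36, 0 and 37 to 39. The medians of large subunit symbols were then 0.44 to 0.59, -0.54 to -0.48, 0.58 to 0.62, -0.40 to -0.35, -0.033 to 0.051 and 0.053 to 0.17, and those of small ones 0.51 to 0.62, -0.65 to -0.53, 0.55 to 0.69, -0.53 to -0.38, 0.013 to 0.19 and 0.16 to 0.31. With only the arrays compared, the counts were 0, 38, 25, 14, 0 and 20, fewer arrays setting the spread. Of all genes 0%, 19.4%, 4.73%, 10.7%, 0.555% and 16.7% were then called. In the main fit these shares were 9.73%, 24.2%, 18.9%, 25.6%, 0.555% and 31.8%. With the replicate number as a block the counts of members were 33, 45, 41, 33, 0 and 41, though no consistent pairing by these numbers was seen. Of all genes 5.83%, 21.1%, 14.8%, 22.2%, 0.0165% and 28.9% were called with this block. With every probe set tested PGC-1α without DFO gave 26. The interaction gave 7 with genes above the median and 10 with a trended, robust spread.

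Averaging the probe sets of each gene, PGC-1α gave 27 rises and 1 fall without DFO, and 32 rises and 1 fall with it. In the same setting DFO gave 27 calls in GFP and 24 in PGC-1α cells, where 17% and 19% of all genes were called. Medians were 0.38 (large, PGC-1α without DFO), -0.37 (large, DFO in GFP), 0.41 and 0.49 (large and small, PGC-1α with DFO) and 0.015 (small, interaction), and Mrpl11 turned to 0.17 with DFO in GFP cells. Quantile normalization gave medians of 0.53 (large, PGC-1α without DFO), 0.69 and 0.72 (PGC-1α with DFO), 0.070 (large, interaction) and 0.19 and 0.36 (both against neither). Subunits by structure gave 0.13 for large and 0.18 for small ones in both against neither.

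Spike-in scaling with 27 probe sets gave 29 and 12 calls for DFO in GFP and in PGC-1α cells, where 16.1% and 23.9% of all genes were called. Medians of large and small symbols were 0.69 and 0.78 (PGC-1α without DFO), 1.10 and 1.11 (with DFO), -0.022 and -0.11 (DFO in PGC-1α cells), 0.29 and 0.41 (interaction) and 0.64 and 0.80 (both against neither), with -0.48 for large ones with DFO in GFP cells. With 24 probe sets, calls were 24 for PGC-1α without DFO (2.79% of all genes) and 18 and 3 for DFO (12.3% and 23.1% of all genes). The medians were 0.66 and 0.75, 1.21 and 1.23, 0.062 and -0.023, 0.44 and 0.56, and 0.69 and 0.85. Under the scaling with 24 probe sets Mrps27 (0.0031) and Mrps36 (0.0019) with DFO in PGC-1α cells and Rpl10a (0.0674) with PGC-1α and DFO changed sign. Except where a scaling or probe-set choice is named, the cause was not tested.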
